A study of Mus musculus with 7 samples.

Results

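The NF-kB subunits and their inhibitors were examined in mouse LSK cells (Lin-Sca1+Kit+), the bone marrow compartment of stem cells and multipotent progenitors. The set comprised 10 genes picked by symbol from the 24421 gene symbols of a raw count table, and all 10 were present. They include the 5 subunit genes Nfkb1, Nfkb2, Rel, Rela and Relb. The others are the IkB (inhibitor of NF-kB) family genes Nfkbia, Nfkbib, Nfkbie and Nfkbiz, and the feedback gene Tnfaip3. RNA-seq was performed on LSK cells from 4 recipients of Ddx41+/+ marrow (replicates 1 to 4) and 3 recipients of Ddx41+/- marrow (replicates 6 to 8). The study profiled these cells to ask how progenitors respond to losing 1 allele of the RNA helicase gene Ddx41.

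Donor marrow of both genotypes carried Rosa-CreERT2, a Cre recombinase that tamoxifen activates and that is expressed from a broadly active locus. Ddx41+/- donors had 1 floxed Ddx41 allele and Ddx41+/+ donors had none. Irradiated BoyJ mice received mononuclear cells of this marrow and then 1 mg of tamoxifen per injection, on 5 consecutive days in each of 2 rounds. Bone marrow was taken 8 weeks after the transplant, and RNA came from the cells sorted from each mouse. Strains were kept on a C57BL/6N background per the study's methods, and the age of the mice is not given in the sources used here. No sort for donor cells is given for these samples, so LSK cells that survived in the host may be included in both groups. The name of the deposited table says that a Ddx41+/- library numbered 5 was removed, and it was not analysed here.

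NF-kB transcription factors are dimers of Rel-family proteins. Rela, Rel and Relb carry transactivation domains, whereas Nfkb1 and Nfkb2 encode the precursors p105 and p100, which are processed to p50 and p52. In resting cells the IkB proteins encoded by Nfkbia, Nfkbib and Nfkbie hold dimers in the cytoplasm until the IKK kinase complex marks them for degradation. Nfkbiz encodes a nuclear IkB protein, and Tnfaip3 encodes A20, a ubiquitin-editing enzyme that dampens the signal upstream of IKK. Nfkbia and Tnfaip3 are themselves switched on by NF-kB, which closes a negative feedback loop. In the stem cell compartment the pathway is known for its role in the response to inflammation.

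RefSeq promoters on GRCm38.p6 (the assembly also called mm10) were available for 7 of the 10 genes, and Nfkb1, Relb and Nfkbiz had no entry. The 250 bases before each start site were searched on both strands for the kB consensus, the binding motif of NF-kB. At least 1 match was found for 5 of the 7 genes, namely Rel, Nfkbia, Nfkbie, Nfkb2 and Tnfaip3, and none for Rela and Nfkbib. Among all 32851 promoter entries, 5.93% held a match, and 6.73% of the 27025 gene symbols with an entry held at least 1. The stretches are shown because Nfkbia and Tnfaip3, the feedback genes, are among the members with a match. Capitals mark the match, including overlapping matches of the other strand, and each sequence runs along the strand of its gene. The stretches lie at chr11:23771011-23771101 for Rel, chr12:55492648-55492716 for Nfkbia, chr10:19015411-19015462 for Tnfaip3, chr17:45555554-45555643 for Nfkbie and chr19:46304689-46304717 for the first of 3 Nfkb2 start sites.
Rel: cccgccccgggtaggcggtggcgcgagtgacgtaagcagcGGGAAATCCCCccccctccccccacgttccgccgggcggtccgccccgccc
Nfkbia: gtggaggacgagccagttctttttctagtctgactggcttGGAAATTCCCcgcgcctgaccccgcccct
Tnfaip3: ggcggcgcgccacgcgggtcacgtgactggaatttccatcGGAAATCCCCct
Nfkbie: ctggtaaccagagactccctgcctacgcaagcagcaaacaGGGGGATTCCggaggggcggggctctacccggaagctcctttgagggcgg
Nfkb2: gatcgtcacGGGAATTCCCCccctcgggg
The match began 92 bases before the start site in Rel, 29 in Nfkbia, 12 in Tnfaip3, 106 in Nfkbie and 39 in Nfkb2. Further matches began 125 bases before the first Tnfaip3 start site, 11 before the first Nfkb2 start site, and 236 and 225 before the other Nfkb2 start sites. A match of letters is not evidence that a factor binds there.

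Total counts ranged from 32234499 to 43751290 per sample, and 13340 genes, including all 10 members, passed the filter on low counts. Values are CPM, counts per 1000000 counts of a library, after scaling of library sizes by the trimmed mean of M values (TMM). The targeted gene Ddx41 averaged 97.9 ± 6.43 CPM (SD, n = 4) with Ddx41+/+ and 67.3 ± 2.63 CPM (SD, n = 3) with Ddx41+/- marrow (log2 fold change -0.54, SE 0.071, edgeR adjusted p = 0.0052). Among the markers that define LSK cells, Kit ranged from 427 to 505 CPM and Ly6a, which encodes Sca1, from 13.3 to 30.5 CPM. Of the 10 LSK markers, 0 had an edgeR adjusted p under 0.05, and it was 0.9897 for Kit and 0.9918 for Ly6a. At an unadjusted p under 0.05, 7 of the 10 were lower in Ddx41+/- samples, beside 4.93% of all genes. The median log2 fold change of the list was -0.35. The T cell markers Cd3d, Cd3e and Cd3g were at or below 0.386 CPM in every sample. Of the other T and NK cell markers, Cd8a, Cd8b1, Ncr1 and Gzma stayed at or below 0.695 CPM. Cd4, Klrb1c and Gzmb reached 2.12, 2.73 and 4.59 CPM, and Nkg7 was at 221 to 281 CPM. The neutrophil marker S100a9 was at 191 to 642 CPM.

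The level of each member was first set per kilobase of exon, since longer transcripts give more counts. Nfkb1 was the most abundant, at 65.0 ± 1.24 CPM per kilobase (SD over 7 samples), followed by Rela at 32.7 ± 2.01 and Nfkbia at 25.3 ± 2.84. Nfkbib (14.5 ± 0.739), Nfkbie (7.72 ± 0.533) and Nfkb2 (5.74 ± 0.505) came next. The ranges over samples of these 6 genes did not overlap from one to the next. Tnfaip3 (2.74 ± 0.367), Nfkbiz (1.78 ± 0.561), Relb (1.55 ± 0.347) and Rel (1.39 ± 0.344) were lowest. The range of each of these 4 overlapped that of the next, while the lowest Tnfaip3 value (2.276) was above the highest of Relb (1.931) and of Rel (1.963). With the length of the longest transcript in place of the exons of RefSeq transcripts, Rel and Relb exchanged places and the other 8 genes kept theirs. LSK cells of both genotypes thus held mainly transcripts of the precursor p105 and of Rela, which encodes the main transactivating subunit p65.

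**Figure D1:**
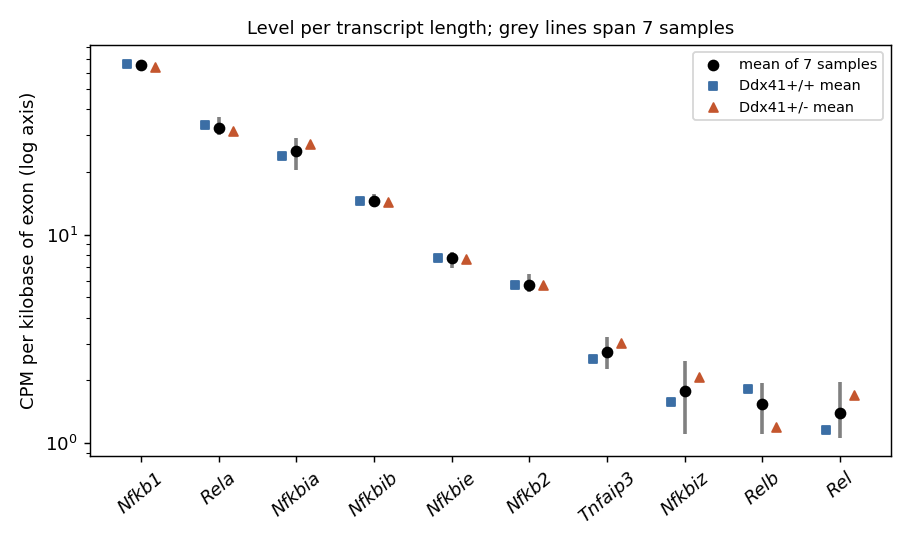
Level of each member in CPM per kilobase of exon on a log axis, with the mean of 7 samples (black), the range over samples (grey line) and the means of Ddx41+/+ (blue squares) and Ddx41+/- samples (orange triangles). Nfkb1 is highest at 65.0 CPM per kilobase, and each of the 4 genes on the right overlaps its neighbour.

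As shares of the 5 subunit transcripts per kilobase, Nfkb1 made up 60.8% ± 1.07 (SD over 4 Ddx41+/+ samples) and 61.5% ± 1.02 (SD over 3 Ddx41+/- samples). Rela made up 31.2% ± 1.26 and 30.2% ± 0.684. Nfkb2 made up 5.30% ± 0.496 and 5.52% ± 0.481. The share of Rel was 1.07% ± 0.0970 in Ddx41+/+ and 1.63% ± 0.282 in Ddx41+/- samples, and that of Relb was 1.67% ± 0.122 and 1.15% ± 0.115. The bulk of the subunit pool was therefore the same gene pair in both genotypes, and the widest relative gaps between genotypes were those of Rel and Relb, its smallest parts. The shares were compared after the values were seen and carry no test.

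Whether the genotypes differed was then asked for each member in a fit of all 13340 genes. With edgeR's quasi-likelihood test, 0 of the 10 members had an adjusted p under 0.05, where 0.217% of all genes passed (0.12% higher and 0.0975% lower in Ddx41+/-). DESeq2 and limma-voom also gave 0 members. The unadjusted p was under 0.05 for 2 members, Rel with a higher and Relb with a lower mean in Ddx41+/- samples, where 10.6% of all genes passed (5.7% higher and 4.93% lower). In limma-voom this held for 4, with Nfkbia and Tnfaip3 added, and for 12% of all genes. For 4 members the samples of one genotype all lay on 1 side of the other, as for 10.1% of all genes. Of these, Rel was higher in Ddx41+/- samples (4.85% of all genes) and Relb, Rela and Nfkb1 were lower (5.21%). The median log2 fold change of the 10 members was -0.0052, beside -0.0048 over all genes tested.

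**Figure D2:**
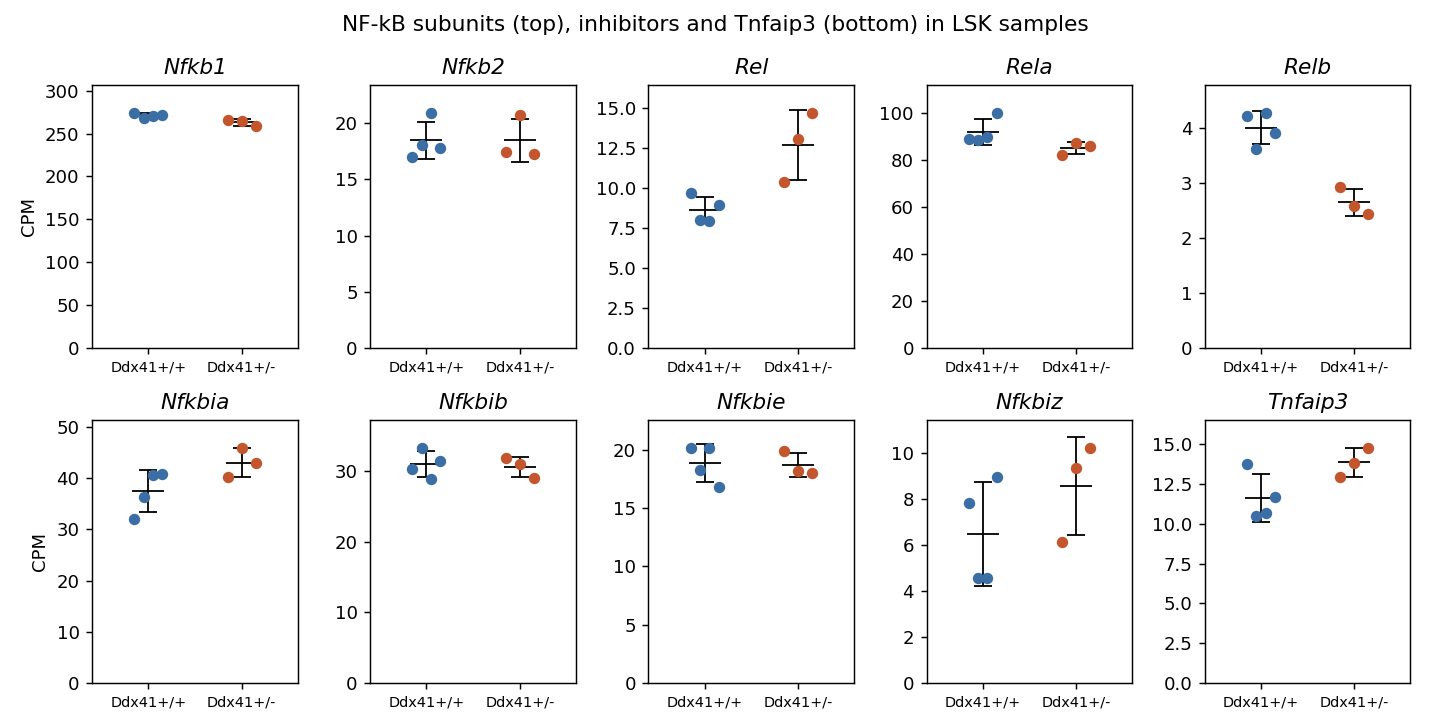
CPM of each member in Ddx41+/+ (blue, 4 samples) and Ddx41+/- LSK samples (orange, 3 samples), each panel with its own axis from 0. Points are samples, and black bars give the mean and SD. Rel (8.62 against 12.7 CPM) and Relb (3.998 against 2.645 CPM) do not overlap between genotypes.

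The subunits are described first, with gene positions on GRCm38 from GENCODE M21. Rel (chr11:23736847-23770970, minus strand) encodes c-Rel, the subunit known best from activated lymphocytes and myeloid cells. It was at 9.65, 8.00, 7.93 and 8.90 CPM in Ddx41+/+ replicates 1 to 4 and at 10.3, 13.02 and 14.7 CPM in Ddx41+/- replicates 6 to 8. All Ddx41+/- samples were above all Ddx41+/+ samples, and replicate 6 was the nearest to them. The mean was 1.47-fold higher in Ddx41+/- samples (log2 fold change 0.56, SE 0.15, 95% interval 0.23 to 0.88), with an unadjusted p of 0.0024 and an edgeR adjusted p of 0.195. The counts behind these values ranged from 251 to 650. The difference was 0.44 on the log2 scale without Ddx41+/- replicate 8 and 0.68 without replicate 6. The adjusted p ranged from 0.0685 with DESeq2 to 0.535 without Ddx41+/- replicate 8 over the 15 alternative fits.

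Relb (chr7:19606217-19629438, minus strand) encodes the transactivating partner of p52 in the non-canonical pathway. It was at 4.21, 3.62, 4.26 and 3.90 CPM in Ddx41+/+ and at 2.92, 2.58 and 2.43 CPM in Ddx41+/- samples. Each Ddx41+/- sample was below each Ddx41+/+ sample, and the mean was 66.2% of that with Ddx41+/+ (log2 fold change -0.60, SE 0.22, 95% interval -1.07 to -0.12). The unadjusted p was 0.0173 and the edgeR adjusted p 0.352. Relb was the member with the lowest counts, 135 to 174 in Ddx41+/+ and 87 to 115 in Ddx41+/- samples. Its adjusted p ranged from 0.279 to 0.638 over the alternatives, and without Ddx41+/- replicate 8 its unadjusted p was 0.0615.

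Because Rel and Relb lay on opposite sides, their ratio within each library was computed after the values were seen. Rel CPM over Relb CPM was 2.29, 2.21, 1.86 and 2.28 in Ddx41+/+ replicates 1 to 4. It was 3.54, 5.05 and 6.02 in Ddx41+/- replicates 6 to 8, so that all Ddx41+/- ratios were higher. Since neither gene overlapped between genotypes and they lay on opposite sides, this separation was fixed beforehand, and the ratio is a description with no test.

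Rela (chr19:5637483-5648130, plus strand) was at 88.8, 88.4, 89.6 and 99.8 CPM in Ddx41+/+ and at 82.1, 87.2 and 85.8 CPM in Ddx41+/- samples. The genotypes did not overlap, though their nearest samples were at 88.4 and 87.2 CPM. The log2 fold change was -0.11 (SE 0.068, 95% interval -0.25 to 0.037, edgeR adjusted p = 0.611), and it was -0.065 without Ddx41+/+ replicate 4, the highest sample. Nfkb1 (chr3:135584655-135691547, minus strand) was at 274, 268, 271 and 272 CPM in Ddx41+/+ and at 266, 265 and 259 CPM in Ddx41+/- samples. The values again did not overlap, but the mean differed little, at 97.0% of that with Ddx41+/+ (log2 fold change -0.043, SE 0.054, edgeR adjusted p = 0.825). Its 95% interval ran from 0.897-fold to 1.05-fold. Nfkb1 also had the least spread of the members, with a coefficient of variation of 0.908% in Ddx41+/+ and 1.43% in Ddx41+/- samples.

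Nfkb2, the precursor gene of the non-canonical pathway, was at 17.0, 18.1, 20.9 and 17.8 CPM in Ddx41+/+ and at 17.5, 20.7 and 17.2 CPM in Ddx41+/- samples. The genotypes overlapped throughout, with means of 18.45 ± 1.68 CPM (SD, n = 4) and 18.46 ± 1.92 CPM (SD, n = 3). The 95% interval of the log2 fold change was -0.25 to 0.25, and its sign changed with the scaling, from 0.00062 with TMM to -0.014 with library totals only.

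The members of the IkB family and Tnfaip3 had overlapping values. Nfkbia (chr12:55489410-55492647, minus strand), which encodes IkB-alpha, was at 32.1, 36.4, 40.6 and 40.8 CPM in Ddx41+/+ and at 40.3, 45.9 and 42.9 CPM in Ddx41+/- samples. Ddx41+/- replicate 6 fell within the Ddx41+/+ range, and the other Ddx41+/- samples were above it. The mean was 1.15-fold higher (log2 fold change 0.20, SE 0.096, 95% interval -0.0027 to 0.40, edgeR adjusted p = 0.479). The difference was 0.13 without Ddx41+/+ replicate 1, the lowest sample, and 0.15 without Ddx41+/- replicate 7, the highest.

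Tnfaip3 (chr10:19000910-19015657, minus strand) was at 13.8, 10.5, 10.6 and 11.7 CPM in Ddx41+/+ and at 12.97, 13.9 and 14.8 CPM in Ddx41+/- samples. Ddx41+/+ replicate 1 lay among the Ddx41+/- samples, and the other Ddx41+/+ samples were below them. The mean was 1.19-fold higher in Ddx41+/- samples (log2 fold change 0.25, SE 0.14, 95% interval -0.036 to 0.54, edgeR adjusted p = 0.542). Without Ddx41+/+ replicate 1 the difference was 0.34, with an adjusted p of 0.353.

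Nfkbiz (chr16:55811375-55838899, minus strand) varied most between mice of a genotype. It was at 7.83, 4.56, 4.55 and 8.98 CPM in Ddx41+/+ and at 6.14, 9.34 and 10.2 CPM in Ddx41+/- samples. Ddx41+/+ replicates 2 and 3 were low and replicates 1 and 4 were near the Ddx41+/- samples, which gave coefficients of variation of 35.1% and 25.1% in the genotypes. The log2 fold change of 0.40 (SE 0.26, 95% interval -0.15 to 0.95, edgeR adjusted p = 0.619) was 0.25 when Ddx41+/- replicate 8 was left out and 0.60 when Ddx41+/+ replicate 4 was.

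Nfkbib, which encodes IkB-beta, and Nfkbie, which encodes IkB-epsilon, differed least among the members of the IkB family. Nfkbib was at 30.2, 33.3, 28.9 and 31.4 CPM in Ddx41+/+ and at 31.8, 31.0 and 28.9 CPM in Ddx41+/- samples. Nfkbie was at 20.1, 18.3, 20.2 and 16.8 CPM in Ddx41+/+ and at 19.9, 18.2 and 18.04 CPM in Ddx41+/- samples. The Ddx41+/- samples lay inside the Ddx41+/+ range for both genes. The means were at 98.8% and 99.2% of the Ddx41+/+ level, with 95% intervals of 0.866-fold to 1.13-fold for Nfkbib and 0.844-fold to 1.17-fold for Nfkbie.

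For 6 members, Nfkb1, Nfkb2, Rela, Nfkbia, Nfkbib and Nfkbie, the 95% interval of the log2 fold change stayed within 0.5 in either direction. For Rel, Relb, Nfkbiz and Tnfaip3 the intervals reached beyond it. The intervals are not adjusted for the number of genes.

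**Figure D3:**
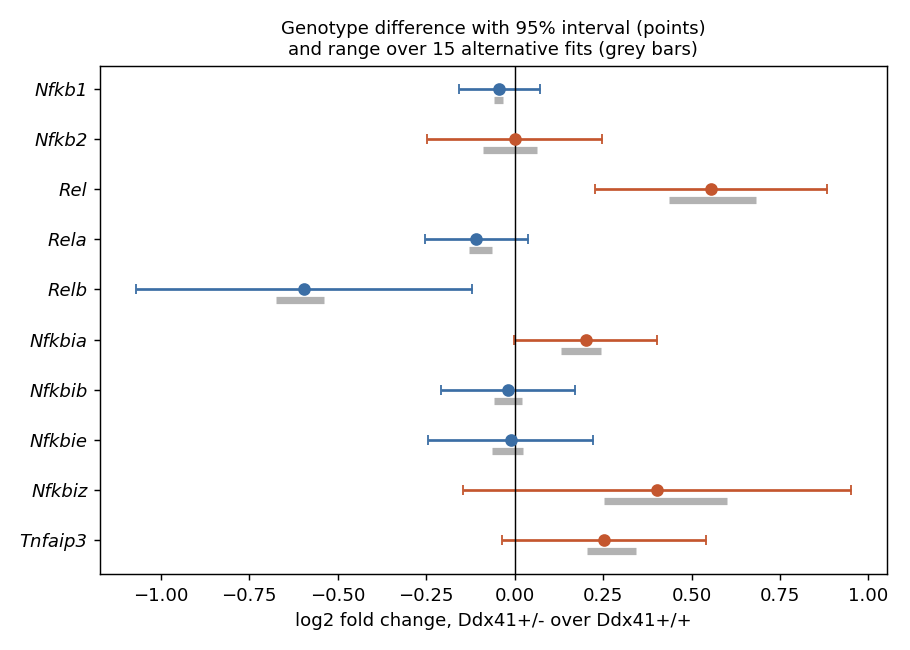
Log2 fold change of each member, Ddx41+/- over Ddx41+/+, with its 95% interval (points and whiskers, orange above 0 and blue below) and the range over the 15 alternative fits (grey bars). The intervals of Rel (0.23 to 0.88) and Relb (-1.07 to -0.12) leave out 0, and those of the other 8 members include it.

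The members with a kB match in the promoter are set beside those without one. Among the former, Rel, Nfkbia and Tnfaip3 had means 1.47-fold, 1.15-fold and 1.19-fold those of Ddx41+/+ samples, while Nfkb2 and Nfkbie were at 100.1% and 99.2%. Rela and Nfkbib, without a match in these windows, were at 92.8% and 98.8%. Of the members with no promoter entry, Nfkb1 was at 97.0%, Relb at 66.2% and Nfkbiz at 1.32-fold. None of these genes had an edgeR adjusted p under 0.05, and whether a match goes with a difference was not tested.

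The rest of the pathway was described with 107 further genes in 7 lists, of which 98 passed the filter. With edgeR, 0 of the 98 had an adjusted p under 0.05, and limma-voom also gave 0. DESeq2 gave 1, the receptor gene Il18r1 (adjusted p = 0.036), where it called 1.04% of all genes. The unadjusted p was under 0.05 for 9 genes, 4 higher and 5 lower in Ddx41+/- samples, which is close to the 10.6% of all genes. The values did not overlap for 13 genes, 6 higher and 7 lower, where this held for 10.1% of all genes. The median log2 fold change was -0.015. By list it ranged from -0.038 for ubiquitin editing and chain assembly to 0.065 for the IKK complex and upstream kinases.

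All 17 receptor genes were tested, and 2 were higher and 2 lower at an unadjusted p under 0.05. Beside this list and those below, 5.7% of all genes were higher and 4.93% lower at that threshold. Il18r1, a chain of the receptor for interleukin 18, was at 6.96, 3.60, 6.38 and 5.28 CPM in Ddx41+/+ and at 3.40, 1.39 and 2.89 CPM in Ddx41+/- samples, without overlap (log2 fold change -1.11, SE 0.30, edgeR adjusted p = 0.187). The interleukin 1 receptor gene Il1r1 averaged 84.1% of its Ddx41+/+ mean (edgeR adjusted p = 0.313). Cd14, a co-receptor for bacterial lipopolysaccharide, was 1.39-fold higher on average, with 13.04 to 17.5 CPM in Ddx41+/+ and 18.7 to 25.4 CPM in Ddx41+/- samples (edgeR adjusted p = 0.249). Tlr9, an endosomal sensor of DNA, was 1.38-fold higher (edgeR adjusted p = 0.437).

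Of the 11 ligand genes 8 were tested, and Ltb, which encodes lymphotoxin beta, was lower at an unadjusted p under 0.05, at 73.9% of its Ddx41+/+ mean (edgeR adjusted p = 0.365). Tnf, the gene of tumor necrosis factor, was at 3.09 ± 0.898 CPM (SD, n = 4) and 3.47 ± 0.317 CPM (SD, n = 3), and Tnfsf14 was at 85.6%. None of the 14 adaptor genes had an unadjusted p under 0.05. Irak3, an inhibitor of receptor signaling, was at 62.0 ± 0.462 CPM (SD, n = 4) and 66.8 ± 1.82 CPM (SD, n = 3), Ticam1 had a 1.06-fold mean, and Traf2 and Tradd were at 91.25% and 84.9%.

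Among the 11 IKK and upstream kinase genes, Tab3 (1.17-fold) and Ikbke (1.14-fold) were higher and Ikbkg, which encodes the regulatory IKK subunit NEMO, was lower (84.4%) at an unadjusted p under 0.05, with edgeR adjusted p-values of 0.427, 0.468 and 0.347. Ikbkg lay between 59.99 and 61.24 CPM with Ddx41+/+ and between 43.9 and 59.8 CPM with Ddx41+/- marrow. Map3k14, the kinase of the non-canonical pathway, was at 88.4%. Of the 14 genes of ubiquitin editing and chain assembly, Tnip3, which encodes a binding partner of A20, was lower at an unadjusted p under 0.05, at 64.5% (log2 fold change -0.63, SE 0.18, edgeR adjusted p = 0.223). It was at 6.69 to 8.08 CPM in Ddx41+/+ and 4.26 to 5.76 CPM in Ddx41+/- samples. Rnf31 was at 86.6%, while Cyld (1.085-fold) and Tax1bp1 (1.05-fold) had higher means, and none of the 3 had an unadjusted p under 0.05. Of the 8 other IkB family genes and nuclear regulators none had one either, with Pdlim2 at 1.095-fold, Csnk2a1 at 1.04-fold and Nfkbil1 at 90.1%.

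Transcriptional targets of NF-kB numbered 32, of which 26 were tested and 0 had an unadjusted p under 0.05 with edgeR. Their median log2 fold change was -0.025, with 12 genes above and 14 below 0. The chemokine gene Ccl3 had the smallest p among the higher ones with a mean of at least 1 CPM, at 10.4 ± 3.75 CPM (SD, n = 4) and 16.8 ± 5.82 CPM (SD, n = 3) with overlapping values. Plau was 1.23-fold higher, and Csf1 and Bcl2l1 were at 83.1% and 88.8%. The cytokine and chemokine genes Il6, Cxcl1, Cxcl2 and Csf2 had too few counts to be tested.

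**Figure D4:**
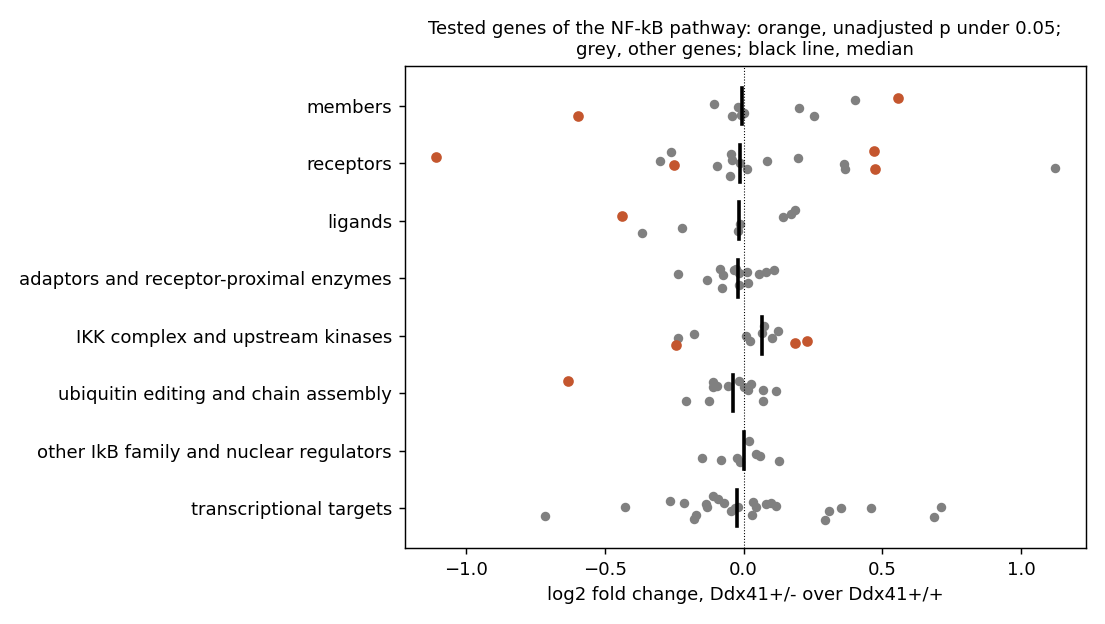
Log2 fold changes, Ddx41+/- over Ddx41+/+, of the 10 members and of the 98 tested genes in 7 pathway lists. Each point is a gene, orange where the unadjusted p is under 0.05 and grey otherwise, and black lines give medians, which lie between -0.038 and 0.065 in the pathway lists.

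Marker lists for other cell types and for early response were summed in the same libraries. Over 24 early response genes, the kind induced by handling as well as by signaling, the summed level was 1073 to 1759 CPM in Ddx41+/+ and 1440 to 2142 CPM in Ddx41+/- samples, and 1 gene, Rhob, had an adjusted p under 0.05 and was higher. At an unadjusted p under 0.05, 7 of the 23 tested were higher and 1 lower, beside 5.7% and 4.93% of all genes. Ddx41+/- replicates 7 and 8 had the highest sums and also the highest Rel and Nfkbiz values. Among the Ddx41+/+ samples, the sum and Nfkbiz were highest in replicate 4, but Rel was highest in replicate 1 (9.65 CPM). Mature neutrophil markers, of which 11 of 12 were in the table, summed to 818 to 1337 CPM in Ddx41+/+ and 1422 to 2375 CPM in Ddx41+/- samples, with 1 gene, Mmp9, past the adjusted threshold. At an unadjusted p under 0.05, 10 of the 11 were higher (5.7% of all genes), with a median log2 fold change of 0.83. The values of 8 did not overlap (10.1% of all genes). The summed neutrophil level was highest in Ddx41+/- replicate 6, where Rel was lowest among the Ddx41+/- samples. The 12 B lineage and plasma cell markers summed to 115 to 215 CPM and 113 to 471 CPM, highest in Ddx41+/- replicate 7. Without that replicate the log2 fold change of Rel was 0.53 and that of Relb -0.58. Monocyte and macrophage markers (12 genes) summed to 1396 to 1667 CPM and 1616 to 2239 CPM, stroma and endothelium markers (10 genes) to 81.0 to 106 CPM and 74.6 to 108 CPM. Of 12 T and NK cell markers 11 were in the table, with sums of 226 to 281 CPM and 259 to 286 CPM, nearly all from Nkg7. Of 10 late erythroid markers 8 were in the table, with sums of 170 to 206 CPM and 224 to 237 CPM, and the 4 globin genes were listed at 0 in all samples. The 10 LSK markers summed to 1665 to 1856 CPM in Ddx41+/+ and 1536 to 1676 CPM in Ddx41+/- samples. The part of these transcripts in the Rel and Relb values was not tested. In bulk samples, fewer cells that express a gene and less RNA per cell cannot be told apart.

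Genes whose log2 CPM followed 2 feedback genes most closely over the 7 samples were listed among 9819 genes with a mean of at least 5 CPM. For Nfkbia they were Map3k7 (Pearson's r = 0.983), H3f3b (0.982), Retsat (0.982), Glyr1 (0.9754) and Ero1lb (0.973). Map3k7 encodes TAK1, the kinase that activates IKK, and its mean was 86.1 CPM in Ddx41+/+ and 93.7 CPM in Ddx41+/- samples. For Tnfaip3 they were Uprt (0.979), Zbtb38 (0.977), Ahctf1 (0.976), Ccp110 (0.974) and Prpf8 (0.968). No gene appeared in both lists. All points share the same 7 libraries, so the lists describe these libraries only.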

How the data were processed

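The authors isolated poly(A) RNA from sorted LSK cells, sequenced paired-end reads and deposited raw counts per gene symbol, whole numbers that are not normalized. The submitters' processing notes name HISAT2 2.0.5, featureCounts 1.5.2, FastQC 0.11.7 and mm10. The annotation, the use of strand and whether reads or read pairs were counted are not given in the sources used here, which name both a stranded and another library kit. Exons of Nfkb2 and Nfkbib overlap opposite-strand genes, so their counts may include other reads.

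Counts were tested with edgeR 4.0.16 in R 4.3.3 (quasi-likelihood, robust, TMM, filterByExpr by genotype, Benjamini-Hochberg (BH) adjustment over 13340 genes, threshold 0.05). The fit was also run on simulated counts. The changes planted there were larger than the difference of any member, so that run does not check the power at the differences reported here. The standard error was obtained by dividing the size of the log2 fold change by √F. P-values measure the spread between 4 and 3 recipient mice, and 0 sample columns were left unused. The study's methods do not give the number of marrow donors, so this spread may not include that between donors. Alternatives were DESeq2 1.42.0, limma-voom (limma 3.58.1, sample quality weights), other scalings and filters, and leaving out each sample. Lengths came from GENCODE M21 (GRCm38), promoters from RefSeq. Log2 CPM used a prior count of 2. No gene set test was run.

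The members and lists were chosen with earlier results of these data known. Named were the members, Ddx41, per pathway list genes with an adjusted p under 0.05 and the 2 per direction with the smallest p at a mean of at least 1 CPM, and for Nfkbia and Tnfaip3 the 5 genes (predicted genes left out) with the highest correlation. Map3k7 appears as 1 of these. Outside this rule, cell type and early response markers, targets with a kB match and targets with too few counts are also named. For 1 gene that this rule names, the values are not reported here.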

Additional observations from a re-analysis of the deposited data

Results flagged for a closer look

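In the 4 Ddx41+/+ samples, 46 values were checked for a sample far from the others (Dixon's ratio above its 95% critical value), and 3 were found, where chance gives about 5%. Rela was at 99.8 CPM in Ddx41+/+ replicate 4 and between 88.4 and 89.6 CPM in the other Ddx41+/+ samples (ratio 0.899). The log2 fold change of Rela went from -0.11 to -0.065 without that sample. Tnf was also highest in replicate 4, at 4.42 CPM with the other 3 at or below 2.84 CPM (0.837), and that library had the highest summed early response level among the Ddx41+/+ samples (1759 CPM). Ticam1 was low in Ddx41+/+ replicate 1, at 18.1 CPM against at least 22.9 CPM (0.842).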

How the results depend on the processing

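Over 15 alternative fits, 0 members had an adjusted p under 0.05, and the direction of Nfkb1, Rel, Rela, Relb, Nfkbia, Nfkbiz and Tnfaip3 and the call of Ddx41 were kept. Nfkb2, near 0, was negative with upper-quartile scaling (-0.0069), library totals (-0.014) and limma-voom (-0.024) and ranged from -0.088 to 0.064 over the fits without 1 sample. Nfkbie was 0.014 with limma-voom and -0.062 to 0.023 without 1 sample, and Nfkbib -0.050 to 0.021 without 1 sample. Members with an unadjusted p under 0.05, a count added after seeing the data, numbered 4 with limma-voom and 1 (without Ddx41+/- replicate 8) to 4 (without Ddx41+/+ replicate 4 or Ddx41+/- replicate 6) without 1 sample. Pathway genes past the adjusted threshold numbered 1 with DESeq2. Genes past it over the whole table (29) numbered 15 with library totals, 147 with DESeq2, 14 without the robust fit, 91 without a filter, and 7 to 41 without 1 sample (7 without Ddx41+/+ replicate 2, 16 without replicate 3, 14 without Ddx41+/- replicate 7 and 9 without replicate 8). The causes were not tested. No paired analysis was possible because the genotypes share no replicate numbers. The members with the lowest counts were Relb and Nfkbiz, with as few as 87 and 144 in a sample. Nfkbiz also varied most between mice of a genotype, with coefficients of variation of 35.1% and 25.1%.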

Other observations

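The kB consensus was also counted over all promoters. Of the 24 target genes with a promoter entry, 10 held a match in the 250 bases before a start site, among them Sod2, Irf1, Csf1, Bcl2l1, Ier3 and Cxcl10, beside 6.73% of the 27025 gene symbols with an entry. Of these 10, Cxcl10 averaged 2.53 ± 1.58 CPM (SD, n = 4) with Ddx41+/+ and 1.53 ± 0.196 CPM (SD, n = 3) with Ddx41+/- marrow, with overlapping values (edgeR adjusted p = 0.577). Sod2, a mitochondrial superoxide dismutase, was at 95.3% of the Ddx41+/+ level, Irf1 at 91.2% and Ier3 at 88.5%. Csf1 and Bcl2l1 were at 83.1% and 88.8%, and Tnfaip2 was at 102%. Il6, Cxcl1 and Cxcl2 had too few counts to be tested. None of the tested ones had an unadjusted p under 0.05 with edgeR.

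Among the 10056 tested genes with a promoter entry, 846 held a match and 9210 did not. Their median log2 fold changes were -0.0027 and -0.0057. With edgeR, 0 genes with a match and 25 (0.271%) without one had an adjusted p under 0.05, and 11.2% and 10.7% had an unadjusted p under 0.05. Of the genes with a match, 4.96% were higher and 6.27% lower in Ddx41+/- samples at that threshold, beside 5.85% and 4.83% of those without. These shares are descriptions over genes, which are not independent replicates.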
